A study of Mus musculus with 26 samples.

Results

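The genes described here encode deubiquitinases, the proteases that take ubiquitin off proteins, and E2 enzymes, the conjugating enzymes that hold ubiquitin before it is passed on. They were taken by symbol, as every listed transcript whose symbol starts with Usp and a digit, Otud, Otub, Uchl or Ube2. Of the 10104 transcripts listed for either cell type, 84 matched, of which 51 are deubiquitinases, 32 are E2 enzymes and 1 is Usp6nl. Usp6nl carries a Usp symbol but encodes a GTPase-activating protein with no protease domain, so it is left out of both classes and of all counts below. Labelled RNA was followed in oligodendrocyte progenitor cells (OPCs) derived from epiblast stem cells of the mouse strain 129S/SvEv, and in oligodendrocytes (OLs) that were differentiated from such OPCs in a medium with noggin, IGF-1, cyclic AMP, NT3 and the thyroid hormone T3. OPCs were grown with bFGF and PDGFA. Both cell types took up 5-ethynyluridine (5-EU) for 24 h, in OLs after 40 h of differentiation, and the label was then chased with uridine for 0, 1, 2, 4 or 6 h. There were 3 OPC replicates and 2 OL replicates, and a differentiated culture still holds some undifferentiated OPCs, which limits what an OL value stands for.

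Ubiquitin is attached in a cascade. An E1 enzyme activates it, an E2 enzyme accepts it on a cysteine, and an E3 ligase brings the loaded E2 to a target, where chains of a given linkage can be built. Deubiquitinases remove or trim the chains, which can spare a protein from the proteasome, end a signal or return ubiquitin to the free pool. Some E2 enzymes carry relatives of ubiquitin instead, such as NEDD8 (Ube2m and Ube2f), and the Usp, Otu and Uch families are cysteine proteases of different folds.

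Short stretches of coding sequence show what these transcripts look like at the codons the study was concerned with, those for phenylalanine (TTT and TTC) and lysine (AAA and AAG). They are shown for the 4 members whose half-life differed between the cell types (described below), each as the run of 10 codons within 1 coding exon that holds the most such codons, with TTT and AAA in capitals and positions on GRCm38. Usp36 is read from codons 932 to 941 at chr11:118263767-118263796, Usp9x from codons 736 to 745 at chrX:13123388-13123417, Ube2q1 from codons 313 to 322 at chr3:89780748-89780777 and Ube2g1 from codons 54 to 63 at chr11:72672970-72672999. Usp36 lies on the minus strand and the others lie on the plus strand.
Usp36: cagaagaagaagaagaagAAAagaaggAAA
Usp9x: gggatgaagtgtTTTgagagattcttcAAA
Ube2q1: gacttcatcctacttaacttctccTTTAAA
Ube2g1: gttTTTaaggctcatctcactttcccaAAA
Over its whole coding sequence Usp36 used AAA for 21 of 93 lysine codons and TTT for 8 of 27 phenylalanine codons. Usp9x, which moved the opposite way, used AAA for 91 of 132 and TTT for 68 of 101. Ube2q1 had AAA at 13 of 26 and TTT at 3 of 11, and Ube2g1 had AAA at 10 of 12 and TTT at 4 of 6.

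A second pair is shown because close relatives differed in half-life. Ube2d1 and Ube2d3, broad-range E2 enzymes that work with many ligases, have coding sequences of 441 nt that are identical at 341 positions (77.3%). The stretch of 10 codons with the most differences, 11 bases, spans codons 13 to 22 in both, at chr10:71262221-71262250 on the minus strand for Ube2d1 and at chr3:135455198-135455227 on the plus strand for Ube2d3, with the differing bases in capitals.
Ube2d1: ttACAGcgtgaTccAccTgcCcaCtgCtcA
Ube2d3: ttGGCCcgtgaCccTccAgcAcaAtgTtcT
None of the 31-base words of the Ube2d1 coding sequence occurred in another listed transcript. Reads can be shorter than that and only listed transcripts were searched, so this does not settle whether its reads are split with relatives. Uchl3 and Uchl4, by contrast, shared 309 such words, 46.8% of those of Uchl3, and their values are uncertain. Ube2d3 and Ube2d2a shared 3.41%, and the share was 0.0373% in Usp34 and 0 in every other member.

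Labels and cell types were checked on marker genes at 0 h. The 10 OL markers summed to 6443 and 2983 FPKM (fragment counts corrected for transcript length and for the reads mapped in the library) in OL replicates 1 and 2 and to 39.2 to 57.5 FPKM in OPCs, where 7 of them, Mag and Mog among them, were not listed. OL replicate 2 thus carried less of these markers than OL replicate 1. The 16 markers of dividing cells summed to 1227 to 1319 FPKM in OPCs and to 286 and 141 FPKM in OLs. All 7 OPC markers were listed in both cell types, with sums of 1536 to 1696 FPKM in OPCs and 1495 and 1285 FPKM in OLs. Olig1, at 1009 to 1079 FPKM in OPCs and 635 and 506 FPKM in OLs, made up most of that sum. Pdgfra, Sox10 and Gpr17 of the same list were higher in OLs (limma, adjusted p = 0.012, 0.00731 and 4.9e-05), at 11.5 to 26.5, 4.07 to 25.4 and 5.00 to 6.61 FPKM in OPCs and at 66.9 and 43.9, 111 and 89.01, and 323 and 299 FPKM in OLs, so 3 of the 7 were higher in the cell type that the list is not named for. The 7 neuronal markers summed to 83.3 to 189 FPKM in OPCs and to 215 and 200 FPKM in OLs, with Rbfox3, Snap25 and Stmn2 not listed in either. The 6 astrocyte markers summed to 379 to 461 FPKM in OPCs and to 344 and 481 FPKM in OLs. Aqp4 was not listed in either cell type, and Gfap (6.86 and 8.12 FPKM) and Aldh1l1 (1.72 and 2.44 FPKM) were listed in OLs alone. Slc1a2 rose from 25.1, 22.9 and 36.96 FPKM in OPCs to 77.4 and 95.7 FPKM in OLs (limma, adjusted p = 0.00401), while Slc1a3 went from 224, 179 and 200.2 FPKM to 95.5 and 155 FPKM (adjusted p = 0.0756) and Aldoc from 213, 177 and 211 FPKM to 163 and 220.4 FPKM (adjusted p = 0.837). None of the 5 microglial markers was listed. The number of reads behind a value is unknown, and p-values for half-life and 0 h level measure the spread between these replicate cultures, while those for slopes measure the scatter of single libraries around a line within each culture.

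A transcript is listed for a cell type only at 1 FPKM or more at 0 h and, by the study's methods, if it is not at 0 at 1 and 2 h, so one that is not listed need not be low at 0 h. Of the 83 members, 76 were listed in OPCs and 80 in OLs, and 73 in both. Among deubiquitinases, Usp51, which acts on histone H2A, was listed in OPCs alone, and Usp2, Usp15, Usp16, Usp35, Usp42 and Usp53 in OLs alone. Among E2 enzymes, Ube2l6, which carries the interferon-induced ISG15, and Ube2t, which works in the repair of DNA crosslinks, were listed in OPCs alone. Ube2e2 was listed in OLs alone. Of all 10104 transcripts, 353 were listed in OPCs alone and 1574 in OLs alone. Usp18, the protease for ISG15, was not listed in either. Uchl5 was listed in both but had a half-life in OLs alone, so that 72 members, 43 deubiquitinases and 29 E2 enzymes, had half-lives in all 5 replicates.

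E2 transcripts had longer half-lives than deubiquitinase transcripts in each of the 5 replicates. The half-life is the time in which labelled RNA falls by 50%, and longer values are held at 6 h, called the ceiling here. The median over deubiquitinases was 1.88, 1.96 and 2.25 h in OPC replicates 1, 2 and 3 (44 transcripts), and that over E2 enzymes was 2.66, 2.36 and 4.22 h (31 transcripts). In OLs the medians were 3.12 and 3.64 h for deubiquitinases (50 transcripts) and 4.41 and 5.89 h for E2 enzymes (30 transcripts). E2 enzymes exceeded deubiquitinases by 0.774, 0.399 and 1.97 h in the OPC replicates and by 1.29 and 2.25 h in the OL replicates, a mean of 1.05 ± 0.821 h (SD, n = 3) and 1.77 ± 0.676 h (SD, n = 2). Without OPC replicate 3 the OPC mean was 0.586 h. Members are not replicates of a class, so this difference is a description with no test. Among the 26 deubiquitinases and 12 E2 enzymes below the ceiling in all 5 replicates the difference was 0.0516 h in OPCs and 0.432 h in OLs (that choice removes the longest half-lives of both classes). With half-lives refitted on the mean decay curve it was 1.82 h in OPCs and 0.867 h in OLs, and with a refit by least squares, chosen after seeing the data, it was 0.641 h and 1.84 h.

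All transcripts together stood between the classes, with medians of 2.33, 2.05 and 2.79 h in OPCs and 4.15 and 4.05 h in OLs. Over transcripts with half-lives in all 5 replicates this did not hold in OL replicate 1, with medians of 4.35 h for E2 enzymes and 4.54 h for all transcripts. Ranked within each replicate, so that the scale of a library has no part, the median deubiquitinase stood at the 39.6th to 43.5th percentile and the median E2 enzyme at the 48.6th to 61.2nd. Transcripts of RING, TRIM and F-box ligases, which give ubiquitination its targets, had medians of 1.53 to 1.96 h in OPCs and 2.98 and 3.09 h in OLs, nearer to those of deubiquitinases. Transcripts of proteasome subunits were at the ceiling at the median in every replicate. The share of deubiquitinases at the ceiling was 13.6 to 18.2% in OPCs and 20.0 and 26.0% in OLs. For E2 enzymes it was 19.4 to 29.03% in OPCs and 36.7 and 50.0% in OLs. For all transcripts it was 24.3 to 31.1% and 36.1 to 39.7%. At the other end, 38.6 to 63.6% of deubiquitinases and 29.03 to 41.9% of E2 enzymes had half-lives under 2 h in OPCs. In OLs these were 15 and 6 of 50 deubiquitinases and 1 of 30 E2 enzymes (3.33%), Ube2j1 in replicate 1 and Ube2c in replicate 2. Over all transcripts the share was 35.6 to 48.5% in OPCs and 23.5 and 15.8% in OLs.

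**Figure D1:**
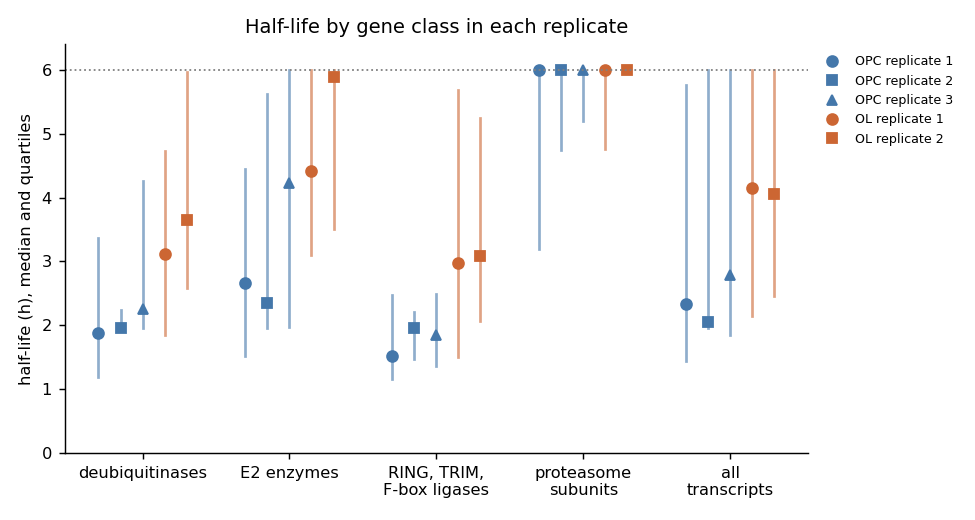
Median half-life in hours (symbols) and quartiles (lines) of each gene class, drawn for each replicate, with OPCs in blue, OLs in orange and the 6 h ceiling dotted. The E2 medians, 2.36 to 4.22 h in OPCs and 4.41 and 5.89 h in OLs, stand above those of deubiquitinases in every replicate, and proteasome subunits sit at the ceiling.

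A limit of the deposited half-lives touches many of these values. For some patterns of points above and below the curve, a fit by least absolute deviations with 1 free parameter stops at a fixed half-life whatever the measured levels, and the most frequent such value was 1.96 h. Within a tolerance of 0.002 h it was the half-life of 26 of 75 members in OPC replicate 2, 10 in OPC replicate 3 and 2 in OPC replicate 1, and of 25.6%, 7.53% and 2.18% of all transcripts in those replicates. In OLs no member was at it. The deubiquitinase median of OPC replicate 2 was this value, so the 0.399 h by which E2 enzymes exceeded deubiquitinases there rests on it. It lies just under 2 h, so the shares under 2 h in OPCs hold such fits. Replicates that share this value show almost no spread, and the deubiquitinase Usp10 was at 1.96 h in all 3 OPC replicates, although 2.71%, 8.39% and 3.01% of its labelled RNA remained at 6 h.

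Of the deubiquitinase transcripts 4 never dropped below the ceiling. Usp5, which takes apart free ubiquitin chains, Otub1, which also blocks E2 enzymes, and Uchl1 and Uchl3, which free ubiquitin from small adducts, were at the ceiling in all 5 replicates, as were the E2 transcripts Ube2a, Ube2l3 and Ube2v1. Those 7 are 9.72% of the 72 members, and 16.1% of all transcripts were at the ceiling throughout. Labelled Uchl1 RNA stood at 101, 157 and 117% of its 0 h level after 6 h in OPCs and at 150 and 108% in OLs. Usp5 stood at 39.8 to 72.6% in OPCs and at 66.5 and 66.0% in OLs, and Otub1 at 48.4 to 55.2% and at 54.6 and 53.0%. Usp9x, a very large protease that acts in polarity and protein turnover, was at the ceiling in OPCs alone. In OLs the list of deubiquitinases at the ceiling in both replicates also took in Otud1, Otud5, Uchl4 and Usp4. Usp14 and Uchl5 both sit on the proteasome. The half-life of Usp14 was 4.75, 1.98 and 4.03 h in OPCs and 5.30 and 6.00 h in OLs, and Uchl5 had 1.501 and 6.00 h in OLs.

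At the short end in OPCs stood Usp36, a nucleolar enzyme, at 0.772 ± 0.141 h and Usp51, which removes ubiquitin from histone H2A, at 1.03 ± 0.497 h (SD, n = 3). Next came Usp28, which stabilises Myc, at 1.08 ± 0.762 h and Usp33 at 1.13 ± 0.347 h (SD, n = 3). In OLs the shortest were Usp2 at 1.23 ± 0.563 h, Otud7b at 1.38 ± 0.232 h, Usp25 at 1.40 ± 0.723 h and Usp49 at 1.72 ± 0.0850 h (SD, n = 2). The 2 lists share no gene, and Usp2 is listed in OLs alone. Enzymes of chromatin had a median of 1.66 h over 5 listed transcripts in OPCs and of 2.44 h over 5 in OLs, of which 4 are the same genes, with Usp51 in OPCs alone and Usp16 in OLs alone. Usp22 among them, the protease of the SAGA coactivator, had 1.91, 2.32 and 2.58 h in OPCs and 5.98 and 4.02 h in OLs, and its OL replicates lay above its OPC replicates. Enzymes of DNA replication and repair had a median of 2.49 h in OPCs and 3.13 h in OLs over 6 transcripts. Usp1, which acts on PCNA and FANCD2, had 2.34, 2.11 and 3.35 h in OPCs and 1.86 and 2.96 h in OLs. Usp7, which removes ubiquitin from Mdm2, had 2.74, 2.08 and 2.31 h and then 2.28 and 5.06 h. Usp37, which acts in the entry into S phase, had 1.95, 1.96 and 1.96 h and then 1.75 and 1.82 h, of which 2 OPC values were at the fixed 1.96 h. Enzymes at endosomes, the endoplasmic reticulum, mitochondria and centrioles had a median of 1.78 h in OPCs and 3.70 h in OLs over 6 transcripts. Usp8, which acts on endosomal cargo, spread over 1.80, 1.96 and 6.00 h in OPCs and 2.76 and 6.00 h in OLs. Usp30, which sits on mitochondria and counters Parkin, had 0.880, 1.96 and 1.66 h and then 2.53 and 5.30 h. The Otu-type Otud5 had 3.05, 2.35 and 4.14 h in OPCs and was at 6.00 h in both OL replicates.

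Among E2 enzymes, those that reached the ceiling in all 3 OPC replicates were Ube2a, the partner of Rad18, Ube2l3, which serves HECT and RBR ligases, Ube2l6, and Ube2v1, a variant without the catalytic cysteine. Ube2n, which builds K63 chains with Ube2v1, had 4.83, 6.00 and 6.00 h in OPCs and 6.00 h in both OL replicates. Ube2b, the close relative of Ube2a, was shorter, at 2.92, 2.36 and 3.21 h in OPCs and 4.35 and 4.15 h in OLs. In OLs both replicates of Ube2d2a, Ube2e2, Ube2e3, Ube2f, Ube2m, Ube2n and Ube2s were also at the ceiling. The shortest E2 transcripts in OPCs were Ube2t at 1.27 ± 0.674 h, Ube2j2 at 1.31 ± 0.563 h, Ube2g2 at 1.38 ± 0.497 h and Ube2o at 1.49 ± 0.419 h (SD, n = 3). Ube2j2 and Ube2g2 serve the disposal of proteins from the endoplasmic reticulum, and with Ube2j1 their median was 1.38 h in OPCs and 3.31 h in OLs. In OLs the shortest were Ube2c at 2.20 ± 0.484 h, Ube2d1 at 2.64 ± 0.662 h, Ube2w at 2.92 ± 0.495 h and Ube2q2 at 2.98 ± 0.146 h (SD, n = 2).

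The Ube2d family spread widely. Ube2d1 had 1.32, 1.96 and 2.17 h in OPCs and 2.18 and 3.11 h in OLs. Ube2d3 had 6.00, 3.15 and 6.00 h and then 4.14 and 3.55 h. Ube2d2a, whose coding sequence is identical to that of Ube2d3 at 86.4% of positions, had 4.70, 3.36 and 4.45 h and then 6.00 h in both. Ube2d1 lay below both relatives in every replicate. In the same broad-range group Ube2e1 had 3.26, 6.00 and 6.00 h in OPCs and 5.32 and 6.00 h in OLs. Of the carriers of ubiquitin relatives, Ube2m had 4.18, 6.00 and 4.54 h and then 6.00 h in both, and Ube2z, which takes ubiquitin and FAT10 from Uba6, 1.63, 1.87 and 1.96 h and then 2.76 and 3.75 h. Ube2k, a builder of K48 chains, had 6.00, 4.31 and 6.00 h in OPCs and 4.46 and 5.31 h in OLs.

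The half-lives of OLs and OPCs were then compared, transcript by transcript, in a limma fit of log2 half-life. Of the 72 members, 3 were longer in OLs and 1 was shorter (adjusted p under 0.05), against 3.39% longer and 0.148% shorter among all 8112 transcripts tested. Without adjustment 24 members and 1866 of the 8112 transcripts had p under 0.05. With half-lives refitted on the mean decay curve, 3 members were longer and 2 shorter, beside 1.08% and 2.39% of all transcripts, and the median change was 0.00 over members and over all transcripts. Members had a median log2 change of 0.53, deubiquitinases of 0.52 and E2 enzymes of 0.55, against 0.37 over all transcripts. When each replicate was centred on its own median these became -0.37, -0.38, -0.35 and -0.53, so the sign turned. Centring moves the change of every transcript by the same amount, so it cannot alter the gap between members and other transcripts. By rank within a replicate the median deubiquitinase changed by -1.07 percentile points and the median E2 enzyme by 1.01, beside -2.35 over all transcripts. Both OL replicates lay above all OPC replicates in 20 of 43 deubiquitinases and 16 of 29 E2 enzymes, beside 35.9% of all transcripts. They lay below in 3 deubiquitinases, Usp9x, Usp37 and Usp45, and in 0 E2 enzymes, beside 2.01% of all transcripts.

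Usp36 rose from 0.630, 0.912 and 0.773 h in OPCs to 4.27 and 3.43 h in OLs, a log2 change of 2.33 ± 0.22 (SE, adjusted p = 0.0387). It moved from the 2.05th to 4.19th percentile of a replicate in OPCs to the 47.7th and 38.0th in OLs. The OPC chase had fallen to 7.12, 21.9 and 9.10% of the 0 h level by 2 h, whereas OLs were still at 64.9 and 36.7%.

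Ube2q1, an E2 enzyme of the Ube2q family, rose from 1.43, 1.96 and 1.66 h to 4.94 and 5.17 h, a log2 change of 1.60 ± 0.16 (SE, adjusted p = 0.0411). The value of OPC replicate 2 is the fixed 1.96 h of the fit, so Ube2q1 could not be tested without repeated fit values. The groups stood apart, with 20.5, 5.99 and 14.5% of labelled RNA left at 4 h in OPCs and 57.1 and 58.5% in OLs.

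Usp9x was the member with a shorter half-life. All 3 OPC replicates stood at the ceiling, and the OL replicates had 3.96 and 4.27 h, a log2 change of -0.54 ± 0.04 (SE, adjusted p = 0.0271). The OPC values are all the same cap, so their spread is 0 by construction and the SE and p rest on a saturated measure. Its levels at 4 h were 135, 72.8 and 114% of 0 h in OPCs and 65.7 and 62.8% in OLs, and at 6 h they were 52.0, 35.6 and 60.7% and 35.0 and 34.7%.

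Ube2g1, which builds K48 chains, had 1.96, 1.96 and 1.98 h in OPCs and 3.00 and 3.10 h in OLs, a log2 change of 0.63 ± 0.02 (SE, adjusted p = 0.00815). Both of the first OPC values were the fixed 1.96 h, so their agreement is no measure of error. At 6 h its levels were 5.40, 5.95 and 11.7% in OPCs and 11.2 and 26.1% in OLs, and these ranges overlap. Its sign turned when each replicate was centred on its median (-0.27), when ranks were used (6.70 percentile points lower) and when the 6 h libraries were left out (-0.022).

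All 4 calls are fragile. None remained with a refit by least squares, with centring on the replicate median, with ranks or without the 6 h libraries, and the Usp36 and Ube2q1 calls were also lost without any single replicate, with adjusted p of 0.0767 to 0.130 for Usp36 and 0.0584 to 0.150 for Ube2q1. The Usp9x call was lost without OPC replicate 1, 2 or 3 (adjusted p = 0.0911, 0.0879 and 0.0808). The 2 members called without OPC replicate 1 were Ube2g1 and Usp19, beside 2.13% of all transcripts. Those called without OPC replicate 3 were Ube2g1 and Ube2e3, beside 2.69%. For Usp10, whose OPC values are all at a fixed value of the fit, the change was positive without OL replicate 1 and negative without OL replicate 2. For Usp36, Ube2q1 and Usp9x the direction held under every alternative that was run.

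**Figure D2:**
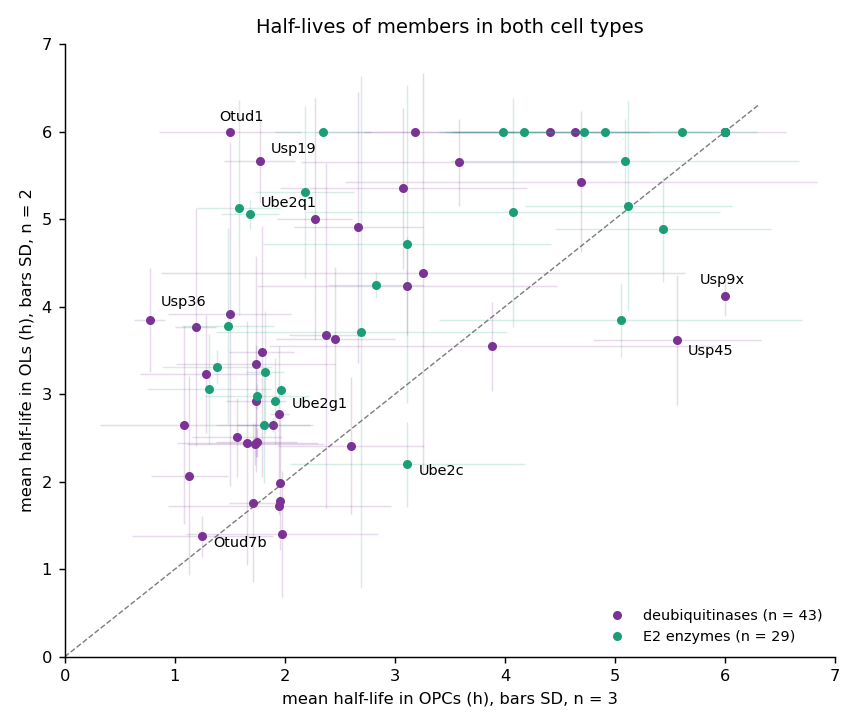
Mean half-life of each member in OPCs (x axis, h, SD over 3 replicates) and in OLs (y axis, h, SD over 2 replicates), deubiquitinases in purple and E2 enzymes in green, with the line of equal half-lives dashed. Most members lie above the line, which turns when each replicate is centred on its own median, and Usp9x, at 6 h in OPCs and 4.12 h in OLs, lies below it.

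**Figure D3:**
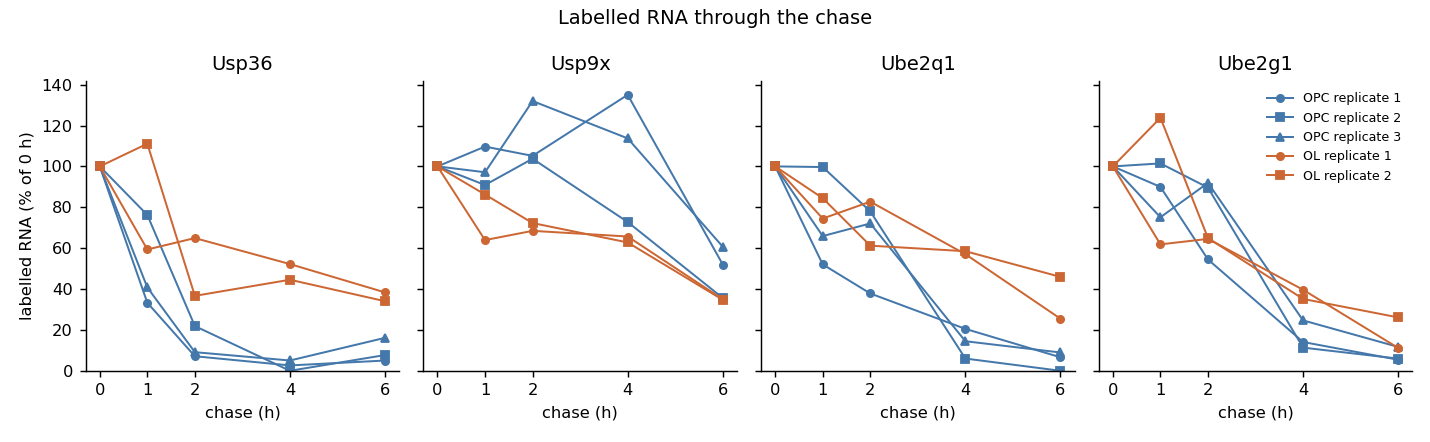
Labelled RNA as a percentage of its own 0 h level (y axis) over hours of chase (x axis) for the 4 members called in the test of half-life, with 1 line per replicate, OPCs in blue and OLs in orange. The OL lines of Usp36 and Ube2q1 stand above the OPC lines at 4 h, those of Usp9x stand below, and the ranges of Ube2g1 overlap at 6 h.

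Labelled RNA at the start of the chase, which follows 24 h of labelling, differed between the cell types in 16 of 73 members. If these values are not scaled to the spike-ins, as their decimals were read, they are relative to the other labelled RNA of the same library. Of 44 deubiquitinases 7 were higher in OLs and 4 were lower, and of 29 E2 enzymes 1 was higher and 4 were lower (limma on log2 of FPKM + 1, adjusted p under 0.05). Among all 8177 transcripts tested 13.8% were higher and 15.8% were lower, against 8 of 73 members in each direction. In such cultures fewer cells of a type and less RNA per cell cannot be told apart.

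Usp20, a relative of Usp33 that acts at the endoplasmic reticulum and centrioles, had the largest rise, from 6.61, 5.19 and 5.48 FPKM in OPCs to 34.4 and 29.6 FPKM in OLs, 5.55 times as high by the means (log2 change 2.29 ± 0.22, SE, adjusted p = 0.000352). Usp25, which acts in endoplasmic reticulum quality control and cytokine signalling, rose from 5.43, 6.66 and 1.73 FPKM to 16.0 and 18.1 FPKM (1.81 ± 0.42, SE, adjusted p = 0.015). Otud7b, an Otu-type enzyme that cuts K11 chains, rose from 4.75, 6.48 and 4.09 FPKM to 17.9 and 15.6 FPKM (1.56 ± 0.24, SE, adjusted p = 0.003). For all 3 the groups stood clear of each other.

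Usp32, which sits on membranes, rose from 6.97, 11.3 and 7.62 FPKM to 27.3 and 24.8 FPKM (1.51 ± 0.25, SE, adjusted p = 0.00406). Usp8 rose from 5.28, 9.89 and 4.73 FPKM to 17.3 and 18.1 FPKM (1.36 ± 0.30, SE, adjusted p = 0.0136), and Usp33 from 2.09, 7 and 6.25 FPKM to 16.6 and 10.9 FPKM (1.36 ± 0.42, SE, adjusted p = 0.0423). With Usp20 these make 4 of the 6 listed enzymes of membranes and organelles, whose median log2 change was 1.36, while the median over all transcripts was -0.01 and 13.8% of them were higher. The list was chosen with earlier results of these data known, so this is a description with no test. The Usp8 and Usp33 calls were each lost without OL replicate 1, OL replicate 2 or OPC replicate 3. The other two were Usp19 at -0.02 and Usp30 at 0.52, which were not called. Usp38 rose from 23.0, 26.3 and 20.6 FPKM to 50.6 and 44.9 FPKM (1.01 ± 0.22, SE, adjusted p = 0.012). The only E2 enzyme that rose was Ube2h, which serves the CTLH ligase of maturing red cells, from 27.7, 19.1 and 25.1 FPKM to 47.6 and 54.2 FPKM (1.07 ± 0.24, SE, adjusted p = 0.0133).

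The largest fall was that of Ube2c, which works with the anaphase-promoting complex in mitosis, from 160, 178 and 153 FPKM in OPCs to 29.2 and 10.2 FPKM in OLs, 8.32 times lower by the means (log2 change -3.16 ± 0.39, SE, adjusted p = 0.000962). Ube2s, which lengthens chains on targets of the same complex, fell from 104, 93.4 and 103 FPKM to 51.2 and 40.1 FPKM (-1.13 ± 0.22, SE, adjusted p = 0.00801). Both stood lower in OL replicate 2 than in OL replicate 1, as did the summed markers of dividing cells given above, whose part in these results was not tested. Ube2t, the third E2 enzyme of the cell cycle group, had 24.3, 14.9 and 18.1 FPKM in OPCs and was not listed in OLs.

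Ube2ql1 fell from 5.17, 15.2 and 6.55 FPKM to 1.59 and 2.50 FPKM (-1.60 ± 0.40, SE, adjusted p = 0.0213). Ube2f, the NEDD8 carrier that serves Cul5, fell from 32.1, 28.8 and 32.0 FPKM to 15.4 and 18.5 FPKM (-0.84 ± 0.21, SE, adjusted p = 0.0221). Among deubiquitinases, Usp21, which can act on histone H2A, fell from 20.3, 15.5 and 20.0 FPKM to 6.66 and 10.4 FPKM (-1.06 ± 0.26, SE, adjusted p = 0.0186). Usp31 fell from 11.6, 18.5 and 15.3 FPKM to 5.29 and 8.81 FPKM (-1.02 ± 0.29, SE, adjusted p = 0.0314). Usp4 fell from 59.2, 49.9 and 56.6 FPKM to 32.6 and 34.3 FPKM (-0.70 ± 0.21, SE, adjusted p = 0.0382), and Usp10, which acts on p53, from 26.1, 28.4 and 25.8 FPKM to 16.1 and 17.1 FPKM (-0.66 ± 0.20, SE, adjusted p = 0.0443). In none of these 6 did the OL range touch the OPC range. Usp6nl, outside both classes, had 14.1, 18.9 and 12.5 FPKM and then 31.4 and 26.9 FPKM.

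The calls for Usp20, Otud7b, Usp32 and Ube2c held under all alternatives that were run. For the others 1 replicate could decide. The number of members called was 5 without OL replicate 1, 6 without OL replicate 2 and 8 without OPC replicate 3, beside 15 and 17 without OPC replicates 1 and 2. Every direction was kept in those fits.

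Both OL replicates lay above all OPC replicates in 18 of the 73 members and below them in 23, beside 28.0% and 31.4% of all transcripts. The most abundant deubiquitinase transcripts were Otub1 at 107 ± 15.6 FPKM, Usp22 at 106 ± 8.99 FPKM, Usp5 at 87.4 ± 17.97 FPKM and Uchl1 at 82.0 ± 21.2 FPKM in OPCs (SD, n = 3), and Usp22 at 124 ± 6.94 FPKM, Otub1 at 92.6 ± 0.963 FPKM, Usp9x at 65.0 ± 0.751 FPKM and Uchl1 at 59.4 ± 4.93 FPKM in OLs (SD, n = 2). Among the most abundant E2 transcripts were Ube2c at 164 ± 13.1 FPKM, Ube2d3 at 124 ± 24.0 FPKM and Ube2s at 100.3 ± 6.03 FPKM in OPCs (SD, n = 3). In OLs they included Ube2d3 at 119 ± 0.547 FPKM, Ube2l3 at 73.3 ± 1.53 FPKM and Ube2d2a at 70.4 ± 7.53 FPKM (SD, n = 2). The 4 abundant deubiquitinases of OPCs were not called (adjusted p from 0.117 to 0.537), which does not show that they were equal.

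**Figure D4:**
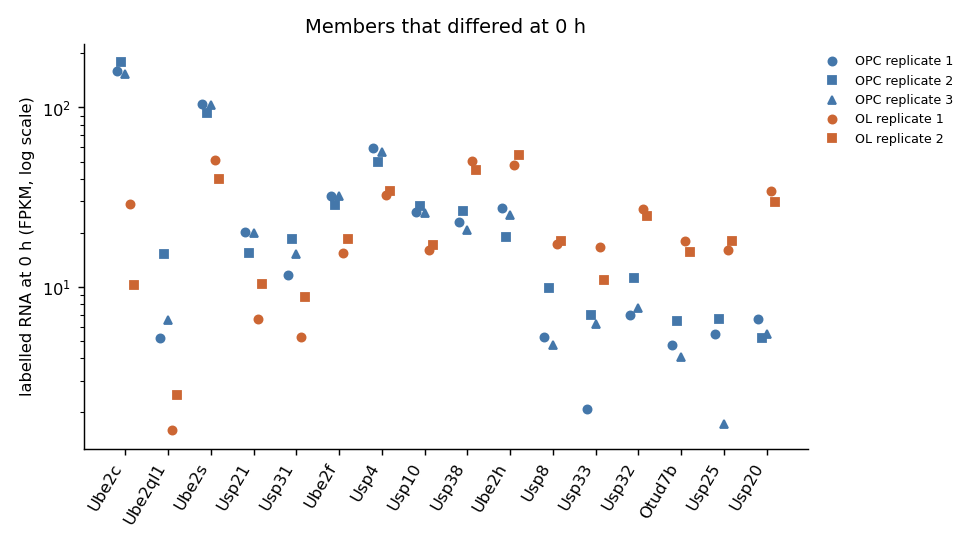
Labelled RNA at 0 h in FPKM on a log axis (y axis) for the 16 members called in that comparison (x axis, from the largest fall to the largest rise), with 1 symbol per replicate, OPCs in blue and OLs in orange. Ube2c fell from 153 to 178 FPKM in OPCs to 29.2 and 10.2 FPKM in OLs, and Usp20 rose from 5.19 to 6.61 FPKM to 34.4 and 29.6 FPKM.

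The chase itself was tested as the slope of log2(FPKM + 1) on hours, on the spike-in scale. In OPCs 72 of 76 members fell, 43 of 45 deubiquitinases and 29 of 31 E2 enzymes, beside 81.7% of all transcripts. In OLs 64 of 80 fell, 43 of 50 deubiquitinases and 21 of 30 E2 enzymes, beside 68.4% of all transcripts. On the spike-in scale Uchl1 was the only member called as rising, at 0.10 per h in OPCs (adjusted p = 0.0358), while in OLs its slope was 0.095 per h (adjusted p = 0.0835). The call in OPCs was lost without any single OPC replicate and without the 6 h libraries. Ube2l6 in OPCs and Ube2a in OLs also had slopes above 0 (0.06 and 0.02 per h) that were not called. With each library scaled to its own median, 27 members fell and 18 rose in OPCs, beside 29.9% and 32.3% of all transcripts, and 20 fell and 13 rose in OLs, beside 23.7% and 28.3%. The median slope in OPCs was -0.43 per h in both classes, and in OLs it was -0.25 for deubiquitinases and -0.21 for E2 enzymes, against -0.38 and -0.20 over all transcripts.
The median level left at 6 h was 8.56, 8.47 and 12.8% for deubiquitinases in OPCs and 25.9 and 34.4% in OLs. For E2 enzymes it was 11.2, 16.8 and 20.4% in OPCs and 28.2 and 45.8% in OLs, higher than for deubiquitinases in each replicate. In OPCs 13, 13 and 12 of the 76 members were listed at 0 at 6 h in replicates 1, 2 and 3, and in OLs 3 and 0 of 80 were. Of all transcripts 15.7, 21.6 and 16.4% were at 0 in OPCs and 4.08 and 0.790% in OLs.

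Slopes were shallower in OLs than in OPCs in 34 of 73 members, 18 of 44 deubiquitinases and 16 of 29 E2 enzymes, and steeper in 0, beside 32.1% of all transcripts that were shallower (limma, adjusted p under 0.05). Without adjustment 42 members and 3559 of the 8177 transcripts differed. The median difference over all transcripts was itself 0.14 per h, beside 0.20 over deubiquitinases and 0.21 over E2 enzymes, and it rests on the spike-in scale of each library. When each library was scaled to its own median instead, that median became -0.02 per h, and the calls split into 7 higher and 12 lower among members and into 11.5% higher and 22.2% lower among all transcripts (2623 shallower and 32 steeper on the spike-in scale). Of the members 46.6% were called, beside 32.5% of all transcripts. The number of members called was 12 (16.4%) without OL replicate 1, 7 (9.59%) without OL replicate 2, 19 (26.03%) without OPC replicate 2 and 19 without the 6 h libraries, beside 9.12%, 11.9%, 21.4% and 19.8% of all transcripts, and the members' share was the lower one without OL replicate 2.

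The same 7 members were higher on both scales, 3 deubiquitinases and 4 E2 enzymes. Usp19, which is anchored in the endoplasmic reticulum, had the largest difference, with slopes of -0.75, -1.04 and -0.90 per h in the OPC replicates and -0.18 and -0.22 in OLs. The difference was 0.69 ± 0.10 per h (SE, adjusted p = 0.000189) on the spike-in scale and 0.77 ± 0.14 (SE, adjusted p = 0.000441) on the median scale. Its half-lives were 1.40, 1.96 and 1.96 h and then 6.00 and 5.33 h, a change that missed the threshold (adjusted p = 0.053).
Ube2q1 had a difference of 0.44 ± 0.09 per h (SE, adjusted p = 0.00124) and 0.38 ± 0.13 (SE, adjusted p = 0.0222) on the median scale. Ube2ql1 had 0.42 ± 0.08 per h (SE, adjusted p = 0.000851) and 0.50 ± 0.09 (SE, adjusted p = 0.000535). These 3 held under all alternatives that were run and could be fitted.
Ube2d1 had 0.39 ± 0.10 per h, Ube2o, a large enzyme that joins E2 and E3 activity, 0.31 ± 0.07, Usp32 0.27 ± 0.08 and Usp54 0.20 ± 0.06 (SE, adjusted p from 0.00163 to 0.0156 on the spike-in scale). The Ube2o, Usp32 and Usp54 calls were lost without OL replicate 1, the Ube2d1, Usp32 and Usp54 calls without OL replicate 2 and the Usp54 call without OPC replicate 2, with adjusted p of up to 0.203. Without the 6 h libraries the Ube2d1 and Usp32 calls were also lost (adjusted p = 0.120 and 0.183).

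The 12 members that were lower on the median scale included Otub1, Uchl1, Uchl3, Usp5, Usp9x, Usp45, Ube2c, Ube2d3, Ube2l3, Ube2n and Ube2v1. On the spike-in scale none of them was called, and their differences lay between -0.06 and 0.07 per h. Usp9x, Uchl1 and Uchl3 were below 0 on both scales, and in the others the direction turned with the scale. Of the 12, 7 were at the ceiling of half-life in all 3 OPC replicates. Usp9x was the lowest on both scales, at -0.06 ± 0.07 per h (SE, adjusted p = 0.492) and -0.31 ± 0.05 (SE, adjusted p = 0.000356).

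**Figure D5:**
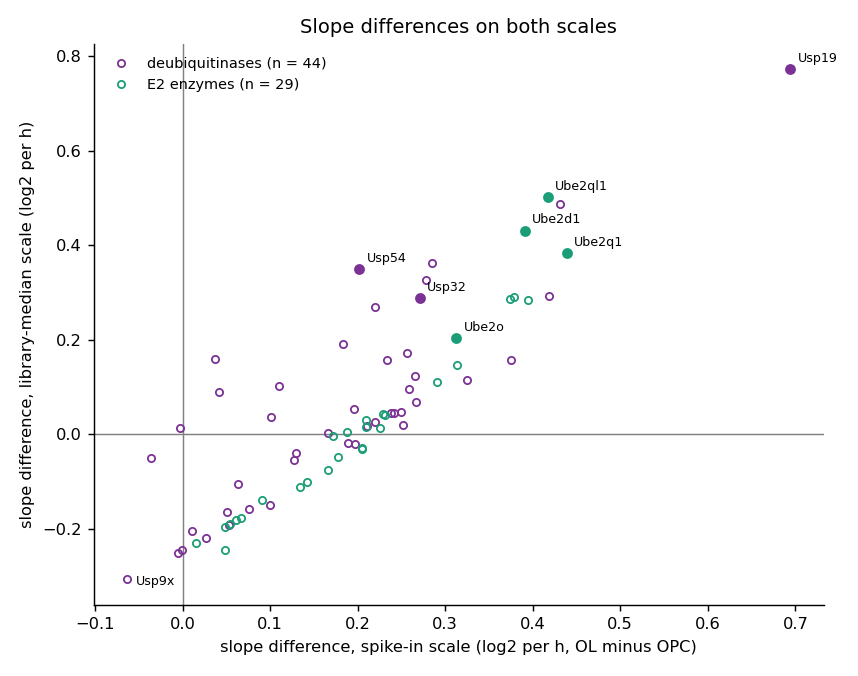
Difference in slope between OLs and OPCs for each member, in log2 units per hour, on the spike-in scale (x axis) and with each library scaled to its own median (y axis), deubiquitinases in purple and E2 enzymes in green, filled where the test passed on both scales. The 7 filled members lie at the upper right, from Usp54 (0.20 and 0.35) to Usp19 (0.69 and 0.77), and Usp9x lies at the lower left.

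Other genes of the pathway were described by lists, to be read beside the 13.8% of all transcripts that were higher and the 15.8% that were lower at 0 h, and the 3.39% with a longer half-life. Of 8 E1 enzymes and subunits listed, 1 rose at 0 h in OLs (Uba3, of the NEDD8 E1) and 2 fell (Sae1 and Uba2, which together form the SUMO E1). Sae1 fell from 148, 111 and 122 FPKM to 63.9 and 55.9 FPKM, and Uba2 from 91.3, 98.4 and 84.5 FPKM to 58.4 and 49.1 FPKM.
A further list holds other deubiquitinase families with related proteins, not all of which remove ubiquitin. Of its 22 genes tested, 6 rose at 0 h and 3 fell (Eif3h, Mpnd and Pan2). Bap1, which removes ubiquitin from histone H2A, had a longer half-life in OLs (adjusted p = 0.0407), from 2.17, 2.03 and 2.20 h to 6.00 and 4.70 h. With each replicate centred on its own median limma called 0 of 8112 transcripts longer (3205 had an unadjusted p under 0.05 in either direction), so this call was lost, as was that of Urm1 below. Cyld, which cuts K63 and linear chains, rose from 2.16, 7.59 and 4.39 FPKM to 21.6 and 21.0 FPKM (log2 change 2.08 ± 0.39, SE, adjusted p = 0.00653).
Of 12 genes for ubiquitin and its relatives, 2 rose and 2 fell, and the median half-life was at the ceiling in both cell types. Urm1 rose both in level and in half-life (adjusted p = 0.000482 and 0.0467). Of 6 SENP proteases tested, which act on SUMO or NEDD8, 1 rose (Senp2) and 1 fell (Senp1) at 0 h.
Of 9 cofactors of deubiquitinases 3 rose and 2 fell. The rising ones include Stam (1.73 ± 0.31, SE, adjusted p = 0.00604) and Stam2 (1.16 ± 0.25, SE, adjusted p = 0.0111), which bind Usp8 on endosomes. Atxn7l3, a partner of Usp22, fell (-0.75 ± 0.23, SE, adjusted p = 0.0404).

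The classes differed most in length. The median coding sequence was 2574 nt in deubiquitinases, from 669 to 10746 nt, and 549 nt in E2 enzymes, from 435 to 3864 nt, beside 1401 nt over all transcripts. The median 3′ untranslated region was 1251 nt and 1271 nt, and the G+C share at the third codon position was 50.6% and 51.3%, against 60.6% over all transcripts. TTT made up 52.9% of phenylalanine codons in the median deubiquitinase and 55.1% in the median E2 enzyme, against 44.4% over all transcripts. AAA made up 40.9% and 45.8% of lysine codons, against 37.5%. The letters TATTTAT, an AU-rich motif, were searched on the transcript strand of the 3′ untranslated region and occurred in 22 of 51 deubiquitinases (43.1%), 9 of 32 E2 enzymes (28.1%) and 29.7% of all transcripts, whose regions differ in length.
Within E2 enzymes, longer coding sequences went with shorter half-lives in OPCs, with Spearman's correlations of -0.54, -0.46 and -0.48 over 29 transcripts, and less so in OLs at -0.14 and -0.17. Within deubiquitinases the correlation was -0.13 to -0.28 in OPCs and -0.33 and -0.34 in OLs over 43 transcripts. Over all transcripts it was -0.17 to -0.26 in OPCs and -0.18 and -0.25 in OLs, so the OPC values of deubiquitinases lie near those of other genes. The length of the 3′ untranslated region gave -0.12 to -0.38 in OPCs and -0.31 and -0.40 in OLs for deubiquitinases and -0.11 to 0.05 for E2 enzymes, beside -0.11 to -0.25 over all transcripts. The TTT share gave 0.04 to 0.05 in OPCs and -0.47 and -0.13 in OLs for deubiquitinases, -0.15 to 0.14 for E2 enzymes and, over all transcripts, -0.04 to 0.05 in OPCs and -0.22 and -0.08 in OLs. The AAA share gave -0.02 to 0.14 in OPCs and -0.20 and -0.15 in OLs for deubiquitinases, -0.35 to 0.02 for E2 enzymes and -0.26 to 0.04 over all transcripts. The G+C share at the third codon position gave -0.21 to 0.26 for deubiquitinases, -0.40 to 0.02 for E2 enzymes and -0.06 to 0.29 over all transcripts. These are descriptions across genes that share the same libraries.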

How the data were processed

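Labelled RNA from 3 OPC and 2 OL replicates at 5 time points was analysed (25 libraries), and the OPC control without biotin was not analysed here. The authors aligned reads to GRCm38 with HISAT2 2.1.0 and tabulated FPKM with StringTie 1.3.5 and ballgown for coding transcripts of GENCODE vM9. The authors describe the deposited FPKM values as scaled to labelled spike-ins at every time, but the 0 h columns, judged from their decimals, were read here as unscaled. The authors removed transcripts with under 1 FPKM at 0 h and those at 0 at 1 and 2 h. Thus read depth is unknown and an error in 1 scale factor moves every transcript of that library. For each replicate the authors also deposited a half-life in hours, from a fit by least absolute deviations that is limited at 6 h. A refit fell within 0.01 h of 98.2 to 99.9% of them. FPKM values of replicates of 1 cell type were compared at each time and were not identical columns.

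The members and lists were chosen with earlier results of these data known. Fits used limma 3.58.1 in R 4.3.3 over all transcripts with Benjamini-Hochberg adjustment and a threshold of 0.05, on log2 half-life, on log2(FPKM + 1) at 0 h, and on log2(FPKM + 1) over hours with an intercept for each replicate. A fold change on the log2(FPKM + 1) scale understates the change of low transcripts. Scripts were tested on simulated data. Coordinates, coding sequences and untranslated regions come from GENCODE M21 on GRCm38, where all 10104 transcripts matched by identifier and 10090 coding sequences start with ATG.

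Members named are those past the threshold in half-life or 0 h level, the 4 longest and shortest half-lives and the 4 highest levels of each class in each cell type with ties, and a list chosen by role, except that some results are not reported here. Members past the threshold in slope on both scales, and genes of other lists, were chosen after their values were seen. Alternatives were other scalings, refits of the half-life, pseudocounts, filters, a replicate block and leaving out each replicate. The replicate numbers were not treated as pairs, since the sources state that OLs came from cells of a pair of OPC replicates without giving the numbers.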

Additional observations from a re-analysis of the deposited data

Results flagged for a closer look

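Rates of decline that differed between OLs and OPCs by the interaction test of the chase are repeated here. Of 73 members tested, 34 had a slope that differed, all of them shallower in OLs on the spike-in scale. Of all transcripts 32.1% were shallower. When each library was scaled to its own median, 7 members were higher, all among these 34, and 12 were lower. The differences on the spike-in scale, OL minus OPC in log2 units per h, were 0.69 for Usp19, 0.44 for Ube2q1, 0.42 for Ube2ql1, 0.39 for Ube2d1, 0.31 for Ube2o, 0.27 for Usp32 and 0.20 for Usp54.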

How the results depend on the processing

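Half-life calls depended on nearly every choice. Of 72 members limma called 4. It called 0 with percentile ranks (21 at an unadjusted p under 0.05), replicate-median centring (24) and the replicate block (17), and also 0 with the refit by least squares (19) and without repeated fit values (9 of 40), both chosen after seeing the data. Of all transcripts tested, members or not, these fits called 23, 1, 0, 24 and 28, so few of any kind passed. It called 1 without the 6 h libraries, Uchl4, which was not among the 4. Leaving out 1 OPC replicate gave 2 to 3 calls, which included Usp19, Otud1, Ube2g2 and Ube2e3, members not among the 4. Ube2g1 turned in sign with ranks (-6.70 percentile points), without the 6 h libraries (-0.022) and with centring (-0.27). For the 0 h level, leaving out 1 replicate gave 5 to 17 calls, from 16. Library-median scaling gave 45 calls (27 falls and 18 rises) instead of 73 (72 and 1) for the chase in OPCs, 33 (20 and 13) instead of 64 falls for that in OLs and 19 instead of 34 for the slope difference. Leaving out 1 replicate gave 66 to 70 calls for the decline in OPCs, 55 to 56 for that in OLs and 7 to 34 for the slope difference, which also had 19 calls without the 6 h libraries. The difference between the medians of E2 enzymes and deubiquitinases was 0.0516 h in OPCs and 0.432 h in OLs among members below the ceiling, 1.82 h in OPCs and 0.867 h in OLs with the refit on the mean decay curve, 0.641 h in OPCs with the refit by least squares, and 0.586 to 1.37 h in OPCs and 1.29 to 2.25 h in OLs without 1 replicate. The cause was not tested, except that alternatives with fewer replicates or members hold fewer data. Deviations of each sample from the mean of its cell type were also correlated between OPC and OL samples. Those that share a replicate number had r of -0.00162 and -0.105 for half-life and 0.0589 and 0.0102 for the 0 h level. Other OPC and OL pairs lay between -0.101 and 0.105. With 2 OL replicates the deviations of one mirror those of the other, so these values cannot show which samples pair. With the replicate block 12 members were called at 0 h, with Ube2f, Usp10, Usp38 and Usp4 lost, and without it the slope difference had 25 and the decline in OPCs and OLs 73 and 62. Depth is unknown, and 2 OL replicates limit every comparison.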

Other observations

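Half-lives at a fixed value of the fit were counted in each replicate, within a tolerance of 0.002 h. The value of 1.96 h, which the fit gives whenever the levels at 1 and 2 h lie above the curve and those at 4 and 6 h lie below it, was held by 2177 of 8491 transcripts in OPC replicate 2 (25.6%), 639 in OPC replicate 3 (7.53%) and 185 in OPC replicate 1 (2.18%), and by 48 of 9698 in OL replicate 1 (0.495%) and 136 in OL replicate 2 (1.40%). A second value, 1.86 h, held 288 transcripts in OPC replicate 1 (3.39%). The cause of the difference between replicates was not tested, and in OPC replicate 2 the median level of all transcripts went from 83.3% of 0 h at 2 h to 20.4% at 4 h.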
